A study of Mus musculus with 12 samples.

Results

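The 8 genes Neurod1, Zic1, Zic2, Zic4, Pax6, Calb2, Fat2 and En2, which mark cerebellar granule cells or the hindbrain territory they arise from, were taken by symbol from a table of 15759 entries and followed over 12 RNA-seq libraries. All 8 were in the table and all 8 passed the filter on low counts, with 15369 genes tested in all. The question of the study was how a mutant Atxn1 allele affects gene expression in cortex and in cerebellum. SCA1 KI mice carried the knock-in genotype Atxn1 154Q/2Q, an expanded glutamine repeat on 1 allele at the endogenous locus, and were compared with wild-type (WT) littermates. All mice were 12 weeks old and of the strain C57BL/6J, and whole cerebellum and whole cortex were macrodissected. Each of the 4 groups (cerebellum WT, cerebellum SCA1 KI, cortex WT, cortex SCA1 KI) held 3 libraries, named by number in cerebellum (WT 2, 4 and 6, SCA1 KI 1, 3 and 5) and by letter in cortex (WT B, C and D, SCA1 KI A, E and F). The cerebellum libraries came from an earlier study of the same laboratory, so that region and sequencing run cannot be told apart. Nothing in the labels says that the libraries of a group came from separate animals, so p-values measure the spread between these libraries.

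Granule cells are the small excitatory neurons of the cerebellar cortex and by far its most numerous cell type. They arise from the rhombic lip, proliferate in the external granule layer and then migrate inward to receive mossy fibers and send parallel fibers to Purkinje cells. Zic1, Zic2 and Zic4 encode zinc finger transcription factors, Neurod1 a basic helix-loop-helix factor needed for their differentiation, Pax6 a paired-box and homeobox factor of the rhombic lip lineage, and En2 a homeobox factor that patterns midbrain and hindbrain. Calb2 encodes calretinin, a calcium-binding protein, and Fat2 an atypical cadherin that is a specific surface marker of granule cells. Several of these genes are also used elsewhere, for example Calb2 in cortical and olfactory bulb interneurons, Pax6 in the olfactory bulb, Zic1 in septum and olfactory bulb, and En2 in midbrain.

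Zic1 and Zic4 lie next to each other on mouse chromosome 9 and are read in opposite directions, and their RefSeq starts are 3203 bases apart. The 250 bases before a RefSeq start are shown for these neighbours and for Fat2 and Neurod1, the members whose levels set cerebellum furthest apart from cortex or that mark the lineage most directly. The sequences are from RefSeq on GRCm38.p6, the build of the study's mm10 alignment, given 5′ to 3′ on the gene's own strand. Capitals mark an E-box, the core CANNTG bound by basic helix-loop-helix factors such as Neurod1, which reads the same on both strands. The windows are chr9:91365769-91366018 on the minus strand for Zic1, chr9:91368722-91368971 on the plus strand for Zic4, chr11:55312258-55312507 on the minus strand for Fat2 and chr2:79456637-79456886 on the minus strand for Neurod1. The windows of Fat2 and Zic4 lie inside the GENCODE spans of these genes given below. They come before the start of a RefSeq transcript and not before the outermost start of the gene.
Zic1: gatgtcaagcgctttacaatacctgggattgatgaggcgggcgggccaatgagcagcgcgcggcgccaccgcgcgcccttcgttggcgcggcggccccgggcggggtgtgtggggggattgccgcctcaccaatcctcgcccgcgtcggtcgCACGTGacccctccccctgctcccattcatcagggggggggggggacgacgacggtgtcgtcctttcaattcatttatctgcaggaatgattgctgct
Zic4: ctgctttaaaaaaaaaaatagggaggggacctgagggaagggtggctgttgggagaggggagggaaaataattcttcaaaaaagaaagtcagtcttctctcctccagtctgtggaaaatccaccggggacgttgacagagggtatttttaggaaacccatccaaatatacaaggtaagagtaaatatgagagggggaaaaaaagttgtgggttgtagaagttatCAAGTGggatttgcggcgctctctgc
Fat2: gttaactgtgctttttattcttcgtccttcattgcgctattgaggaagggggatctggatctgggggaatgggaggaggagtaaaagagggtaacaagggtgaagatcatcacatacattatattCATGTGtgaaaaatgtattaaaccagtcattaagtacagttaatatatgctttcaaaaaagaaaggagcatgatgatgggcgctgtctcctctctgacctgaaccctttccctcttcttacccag
Neurod1: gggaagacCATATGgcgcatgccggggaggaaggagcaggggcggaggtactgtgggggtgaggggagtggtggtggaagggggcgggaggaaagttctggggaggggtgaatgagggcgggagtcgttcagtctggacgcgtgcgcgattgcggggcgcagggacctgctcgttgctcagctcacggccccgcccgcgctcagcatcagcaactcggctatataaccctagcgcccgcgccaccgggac

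RefSeq held 6 windows for 5 of the 8 members, with 2 for Pax6 that are not shown, and Zic2, Calb2 and En2 had no entry. Of the 6 windows 5 held 1 E-box, the 4 shown and the second of Pax6, and the first window of Pax6 held 0, against 66.2% of 32851 RefSeq windows of the same length that held at least 1, so that the match is common. CAGATG and CAGCTG, 2 more specific forms of the same core, were in none of the 6, against 14.4% and 13.0% of all windows. The letters TGAATGAA and TCAATGAA, bound by Capicua, the repressor that forms a complex with ataxin-1, were also in none of them on either strand, against 1.08% and 0.642% of all windows. A match is a description of the letters only.

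The Zic genes are alike in their zinc finger coding sequence, which bears on whether reads can be assigned to each of them. Over the aligned coding bases Zic1 was identical to Zic2 at 78.6% and to Zic4 at 75.6% of positions. The longest exact run shared by Zic1 and Zic4 covers bases 729 to 770 of the Zic1 coding sequence and bases 456 to 497 of that of Zic4, and is shown because it bounds the ambiguity, in capitals throughout since every base is shared.
Shared run: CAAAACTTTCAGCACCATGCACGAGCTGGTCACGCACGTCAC
This run has 42 bases, the longest shared by Zic1 and Zic2 has 35 and the longest shared by Zic2 and Zic4 has 30, all shorter than a sequenced read. Zic1 and Zic4 also overlap on opposite strands, where their exons share 60 bases, and Neurod1 shares 201 exon bases with Cerkl on the same strand. Reads on these bases cannot be told apart.

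In the GENCODE annotation on GRCm38, the 8 genes are spread over 6 chromosomes. Neurod1 spans chr2:79452521-79456751 and Pax6 chr2:105668900-105697364, Zic1 spans chr9:91358058-91365810 and Zic4 chr9:91362413-91389348. Zic2 spans chr14:122475435-122479852, Calb2 chr8:110137502-110168210, Fat2 chr11:55250609-55336564 and En2 chr5:28165694-28172166. Values throughout are normalized counts over the exons of a gene, that is reads scaled by the size factor of their library. The libraries held 29520855 to 51311309 reads on genes, so that 3 reads correspond to 2.06 to 3.66 normalized counts. Atxn1 itself, counted over both alleles, was at 3628 to 3737 in WT and 3717 to 4138 in SCA1 KI cerebellum, and at 6521 to 8147 in WT and 4604 to 7249 in SCA1 KI cortex. Its log2 fold change (LFC) was 0.079 in cerebellum and -0.31 in cortex, neither called by limma (Benjamini-Hochberg adjusted p = 0.837 and 0.132), and counts do not show which allele a read came from.

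Before the genotypes are compared, 3 libraries need mention because results rest on them. WT cerebellum library 2 was the lowest of the 6 cerebellum libraries for all 8 members and for all 20 genes of a list of other granule cell genes, against 30.3% of all tested genes. SCA1 KI cortex library F was the highest of the 6 cortex libraries for 5 of the 8 members, against 14.8% of all tested genes. WT cortex library D held Gabra6, a granule cell receptor subunit, at 42.1 and the Purkinje cell gene Pcp2 at 28.5, where the other 5 cortex libraries held 0 to 3.04 and 0 to 1.19.

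All 8 genes were much higher in cerebellum than in cortex in both genotypes, and Fat2 and En2 set the regions furthest apart in WT. A gene was called when the adjusted p was under 0.05 and the absolute LFC over 0.25. By this rule 8 of 8 members were higher in WT cerebellum than in WT cortex, where 30.7% of all tested genes were called higher, and 8 of 8 in SCA1 KI, where 30.5% were. No member's cerebellum libraries overlapped its cortex libraries in either genotype, and 34.8% of all tested genes in WT and 36.5% in SCA1 KI were higher in cerebellum without overlap. The members were named as granule cell genes, so their direction was set by the choice and only the sizes are informative.

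The granule cell cadherin Fat2 was closest to absent in cortex. It stood at 24336, 30832 and 32384 in WT cerebellum and at 14.3, 12.2 and 37.6 in WT cortex, an LFC of 10.51 (SE 0.40, adjusted p = 1.78e-10, limma). In SCA1 KI it stood at 32345, 32194 and 30656 in cerebellum and 6.90, 18.2 and 22.5 in cortex. The highest cortex value, 37.6, was in library D, the library with the highest Gabra6 and Pcp2. En2, the midbrain and hindbrain factor, followed, at 4610, 7247 and 6566 in WT cerebellum against 29.7, 14.4 and 27.3 in WT cortex (LFC 7.99, SE 0.29, adjusted p = 1.27e-10, limma). Among the Zic factors, Zic1 had an LFC of 6.01, Zic4 of 4.31 and Zic2 of 4.18 in WT. Zic1 means were 26101 ± 5474 in WT cerebellum and 404 ± 88.5 in WT cortex (SD, n = 3), and Zic2, the least region-bound of these, kept 5.41% of its WT cerebellum mean in WT cortex.

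The remaining members left a clear cortical level. Neurod1 kept 4.81% of its WT cerebellum mean in WT cortex (LFC 4.35) and Calb2 3.88% (LFC 4.72). Pax6 had the smallest regional difference, with 3374 ± 522 in WT cerebellum and 335 ± 25.2 in WT cortex (SD, n = 3), which is 9.92% (LFC 3.32, SE 0.17). En2 was the member whose regional LFC moved most with genotype, from 7.99 in WT to 5.50 in SCA1 KI, and the cortex values behind this are given with the cortex comparison.

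**Figure D1:**
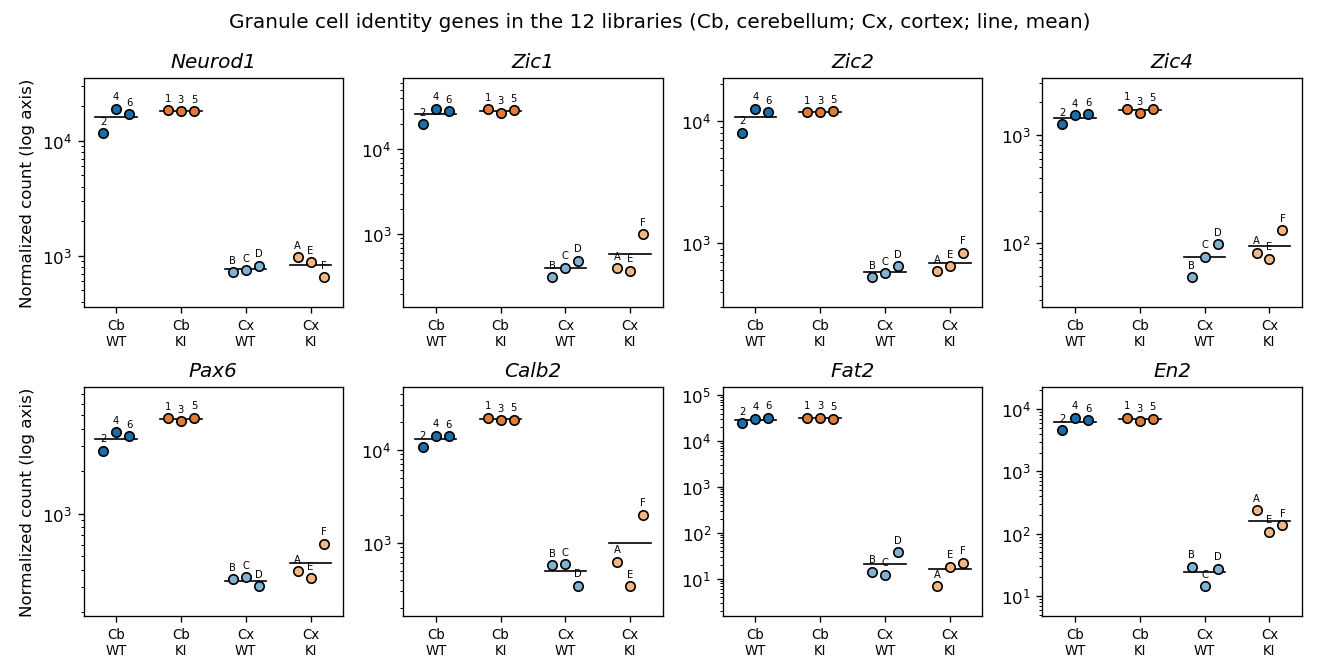
Normalized counts of the 8 genes (log axis) in the 12 libraries, 1 panel a gene, with each point a library marked by its name and each line a group mean (Cb, cerebellum; Cx, cortex). Every member was higher in all 6 cerebellum libraries than in all 6 cortex libraries, WT library 2 was the lowest of the cerebellum libraries in every panel, and En2 is the panel in which the 3 SCA1 KI cortex libraries stood clear of the 3 WT cortex libraries.

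Levels of different genes were set side by side per kilobase of annotated exons, which counts the exons of all transcripts of a gene and so lowers Pax6 and Zic4, whose exons sum to 11.7 and 10.3 kb. On this scale Calb2 was the most abundant member in WT cerebellum, at 7393 ± 1130 normalized counts per kb (SD, n = 3), ahead of Neurod1 at 5839 ± 1384, Zic1 at 4585 ± 962 and Zic2 at 3744 ± 845. Fat2 at 2009 ± 294 and En2 at 1735 ± 387 followed, with Pax6 at 289 ± 44.7 and Zic4 at 139 ± 16.1 last. The order was the same in all 3 libraries, although the ranges of Calb2, Neurod1, Zic1 and Zic2 overlapped from each to the next, as did those of Fat2 and En2. In SCA1 KI cerebellum the order was the same and no neighbours overlapped, with Calb2 at 12199 ± 393 and Neurod1 at 6679 ± 105 per kb. In WT cortex the order began with Calb2 at 287 ± 78.2 and Neurod1 at 281 ± 18.7 per kb, which overlapped, and ended with En2 at 6.73 ± 2.33 and Fat2 at 1.47 ± 0.97, which did not.

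The next comparison was SCA1 KI against WT within the cerebellum. No member was called, but all 8 had a positive LFC, and Calb2 and Pax6 had the largest. The count of 0 of 8 stands beside 5.36% of all tested genes called in either direction and 0.917% called higher, and 1 member (Pax6) had an unadjusted p under 0.05 with limma, as with edgeR and DESeq2, which also called 0. The member LFCs ran from 0.13 to 0.73 with a median of 0.21, where the median over all tested genes was -0.00486. The shared sign rests in part on WT library 2, the lowest cerebellum library for all 8 members. Without it the LFCs of Zic1 and Zic2 were negative, and those of Neurod1, En2 and Fat2 were 0.016 or less. In bulk tissue, fewer cells of a type and less RNA per cell cannot be told apart.

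Calb2, the calretinin gene, stood at 10617, 14150 and 13891 in WT libraries 2, 4 and 6. In SCA1 KI libraries 1, 3 and 5 it stood at 22040, 20744 and 21007. Every SCA1 KI library was above every WT library, and the WT library nearest to them was library 4. The means were 12886 ± 1969 and 21264 ± 685 (SD, n = 3), an LFC of 0.73 (SE 0.45, adjusted p = 0.462, limma). The SE in this fit is shared with the cortex libraries, among which Calb2 varied from 340 to 2000. Fitted on the cerebellum libraries alone, the same LFC had an SE of 0.11 and was called (adjusted p = 0.0110, limma). Without library 2 in that fit the LFC was 0.60 (adjusted p = 7.14e-04, limma), a setting added after looking at the values.

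Pax6, the rhombic lip factor, stood at 2788, 3791 and 3542 in WT libraries 2, 4 and 6 and at 4759, 4527 and 4779 in SCA1 KI libraries 1, 3 and 5. The genotypes did not overlap here either, with the lowest SCA1 KI library 3 above the highest WT library 4. The LFC was 0.49 (SE 0.17, adjusted p = 0.138, limma) and the gene was called with the cerebellum fitted on its own (adjusted p = 0.0395) and, there, without library 2 (LFC 0.35, adjusted p = 0.00447, limma).

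The Zic factors and the other members differed less. Zic4 was the third member whose genotypes did not overlap, at 1246, 1524 and 1544 in WT and 1741, 1590 and 1728 in SCA1 KI (LFC 0.23, SE 0.24, adjusted p = 0.703, limma). The count of 3 of 8 stands beside 31.8% of all tested genes whose cerebellum libraries did not overlap between the genotypes, and 14.3% with SCA1 KI higher. Zic1 stood at 19859, 30089 and 28354 in WT and 29653, 26987 and 28930 in SCA1 KI (LFC 0.15), and Zic2 at 8012, 12586 and 11746 in WT and 11813, 11793 and 12011 in SCA1 KI (LFC 0.17). In these genes the WT libraries 4 and 6 lay among or beside the SCA1 KI libraries and only library 2 lay clearly lower, and without it the LFCs were -0.035 and -0.034.

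Neurod1, the differentiation factor, stood at 11712, 18993 and 17100 in WT and 18558, 18067 and 18058 in SCA1 KI (LFC 0.22, SE 0.16). En2 had an LFC of 0.21 (SE 0.29) and Fat2 of 0.13 (SE 0.40), with 95% intervals from -0.42 to 0.83 and from -0.73 to 0.99. Misses of the threshold with intervals of this width do not show that the genes were alike in the genotypes. Without library 2 the LFCs of Neurod1, En2 and Fat2 were 0.016, 0.012 and 0.0056.

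**Figure D2:**
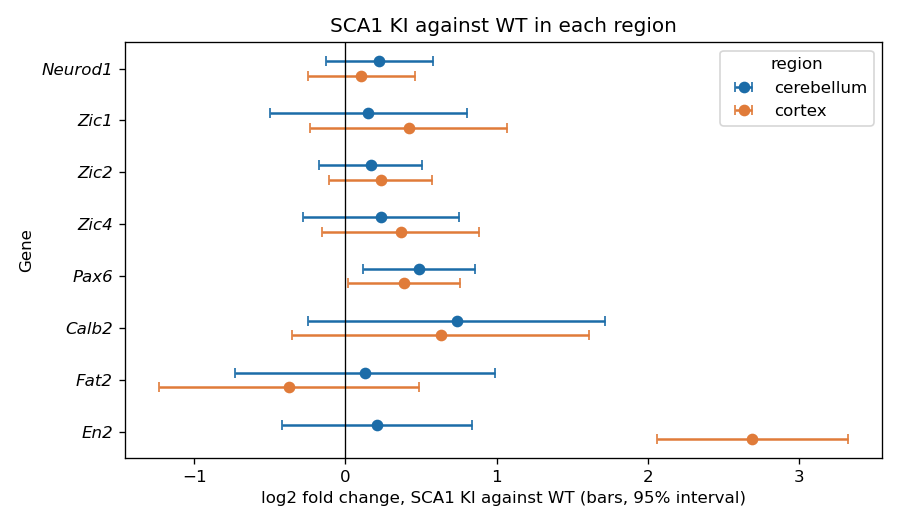
Log2 fold change of SCA1 KI against WT (horizontal axis) for each member (vertical axis) in cerebellum and in cortex, as points with 95% intervals from limma over the 12 libraries. In cerebellum all 8 points lie between 0.13 and 0.73, and in cortex En2, at 2.69, is the member whose interval lies far from 0.

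The 20 other granule cell genes were used as a yardstick of granule cell RNA in each library. Among them 2 were called higher in SCA1 KI cerebellum and 0 lower, with a median LFC of 0.26, and 19 of the 20 had a positive LFC. All 20 were lowest in WT library 2, so this shared sign rests in part on that library. Against WT libraries 4 and 6 the list was mixed. Every SCA1 KI library was below both for Cbln1, Chn2 and Tiam1, and above both for more genes, among them Cadps2, Nfib and Reln. Cadps2, a protein of dense-core vesicle release, rose from 9046, 14172 and 12669 to 18241, 18242 and 18111 (LFC 0.63, SE 0.12, adjusted p = 0.0102, limma). Nfib, a transcription factor of granule cell maturation, had an LFC of 0.38 (adjusted p = 0.0492, limma). With 1 of the 12 libraries left out, Cadps2 was called in all 12 fits (LFC 0.44 to 0.77) and Nfib in 2 of 12 (LFC 0.31 to 0.41), its call being lost without any single cerebellum library and without cortex library B, C, D or F (adjusted p up to 0.194, limma, reached without WT library 2). The summed list ran from 227456 to 309979 in WT, lowest in library 2, and from 307007 to 322966 in SCA1 KI.

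Set against this sum, the libraries of 2 of the 8 members, Calb2 and Pax6, did not overlap between the genotypes. On this scale 31.1% of all tested genes did not overlap, and 1.02% did so with SCA1 KI higher. Per 1000 normalized counts of the list, Calb2 was at 46.0 ± 0.57 in WT and 67.3 ± 1.17 in SCA1 KI (SD, n = 3), a ratio of 1.46 with no overlap. Pax6 was at 12.1 ± 0.33 and 14.8 ± 0.15, a ratio of 1.23 with no overlap. The ratios of the other 6 ran from 0.962 for Fat2 to 1.03 for Zic4, and the libraries of each overlapped. A fit of the cerebellum scaled to this sum, also added after looking at the values, gave Calb2 an LFC of 0.55 that was called (adjusted p = 0.0112, limma) and Pax6 an LFC of 0.30 that was not (adjusted p = 0.227, limma). That scaling shifts the median LFC of all tested genes to -0.19.

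**Figure D3:**
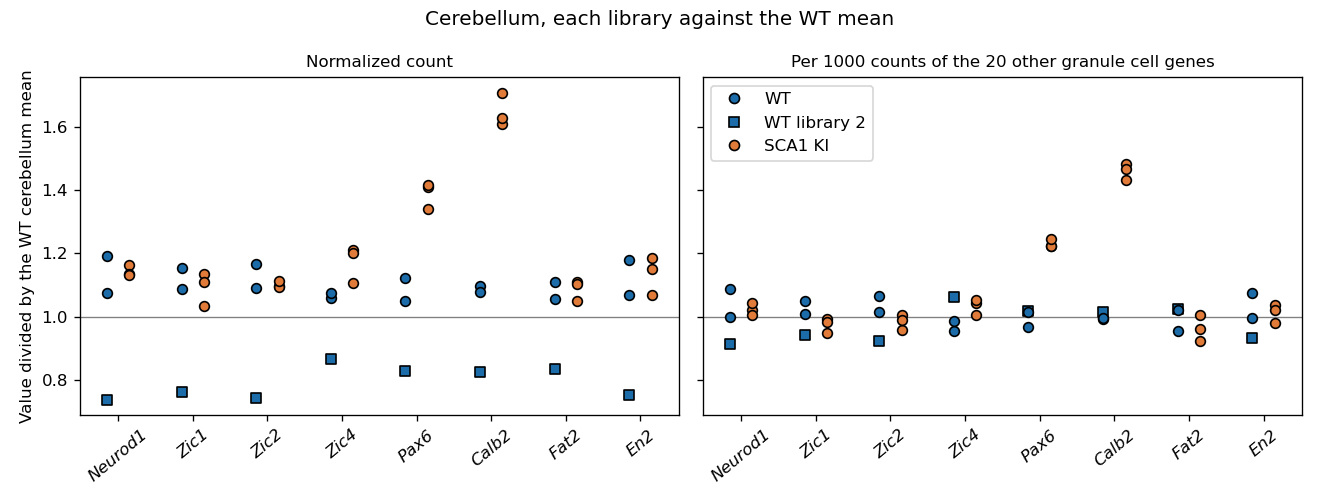
Each cerebellum library's value divided by the WT cerebellum mean (vertical axis) for the 8 members, as normalized counts on the left and per 1000 normalized counts of the 20 other granule cell genes on the right, with WT library 2 as a square. Library 2 lies below all others in every column on the left and nearer to the other WT libraries on the right, where Calb2 (ratio 1.46) and Pax6 (ratio 1.23) are the members whose genotypes do not overlap.

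Markers of neighbouring tissue and of other cell types moved with the genotype in the same libraries. The summed level of midbrain markers was 959 to 1633 in WT and 363 to 416 in SCA1 KI cerebellum. Of its 8 tested genes 6 were lower in SCA1 KI, among them Tfap2d, a factor of the midbrain roof, at 214, 125 and 181 in WT and at 3.37, 0.687 and 1.94 in SCA1 KI, of which the last 2 lie under 3 reads. Thalamus and habenula markers summed to 10706 to 15911 in WT and 6236 to 6536 in SCA1 KI (5 of 9 lower), with Tcf7l2, a thalamic factor, at 2404, 1480 and 2051 against 223, 210 and 249. Cerebellar nuclei markers summed to 4798 to 11043 against 2343 to 2840, a sum led in WT by Slc17a6, a vesicular glutamate transporter. Slc17a6 is also counted in the thalamus and habenula list, so the 2 sums are not separate. Of the 4 cerebellar nuclei markers 2 were lower, Slc17a6 (LFC -1.91) and Meis2 (LFC -1.98). Another, Tbr1, was called higher, with a mean of 26.9 in WT and 40.9 in SCA1 KI (LFC 0.58, adjusted p = 0.0220, limma). The call of Tbr1 was lost without SCA1 KI library 1 or 5 or WT library 4 or 6 (adjusted p up to 0.108, limma). Over all tested genes 4.44% were called lower. Library 2 held the most Tfap2d, Tcf7l2 and Slc17a6, and also Hoxa5, a gene of the posterior hindbrain, at 189 against 0 to 36.8 in the other 5. The part of these markers in the member values was not tested, and the scaling to granule cell genes above does not measure it.

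Unipolar brush cells are the other calretinin-positive excitatory cell of the granular layer. Eomes, which defines them, was at 418, 1656 and 731 in WT and 484, 606 and 359 in SCA1 KI, and of the 7 marker genes tested 0 were called higher and 1 lower. Their part in the Calb2 values was not tested. Of 9 Purkinje cell genes all 9 had a negative LFC, with a median of -0.29, and 1, Rgs8, was called lower (LFC -0.62, adjusted p = 0.0163, limma). Of 13 genes of granule cell progenitors 1 was called higher, the cyclin gene Ccnd1 (LFC 0.54, adjusted p = 0.0335, limma), and 0 lower. With 1 library left out, Rgs8 was not called without SCA1 KI library 1 or 5 or WT library 6 (adjusted p up to 0.0703, limma) and Ccnd1 not without any single cerebellum library (adjusted p up to 0.143, limma). Among the tested relatives of the members 0 of 15 were called in cerebellum, with Zic5 at 574 to 777 in WT and 972 to 1042 in SCA1 KI, ranges that did not overlap.

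In the cortex, SCA1 KI against WT, En2 alone was called among the 8 members, and it was higher. The count of 1 of 8 stands beside 15.6% of all tested genes called in either direction and 4.82% called higher. En2 was at 29.7, 14.4 and 27.3 in WT libraries B, C and D and at 239, 108 and 136 in SCA1 KI libraries A, E and F. Every SCA1 KI library was well above every WT library, as in 1 of 8 members against 30.9% of all tested genes without overlap. The means were 23.8 ± 8.24 and 161 ± 69.1 (SD, n = 3), an LFC of 2.69 (SE 0.29, adjusted p = 6.19e-05, limma). The LFC ran from 2.37 to 2.93 over all alternatives and left-out libraries. The cerebellar LFC of En2 was lower than the cortical by 2.48 (SE 0.41, adjusted p = 0.00299, limma), and En2 was the 1 member of 8 whose genotype LFC differed between regions, beside 8.15% of all tested genes.

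The En2 level in SCA1 KI cortex was 1.76% to 3.90% of the WT cerebellum mean. In the same libraries, Fat2 was at 0.0236% to 0.0772% of its WT cerebellum mean. The granule cell receptor subunit Gabra6 was at 0, 3.04 and 1.80 in libraries A, E and F and Cbln3, a secreted granule cell protein, at 19.7, 14.2 and 11.7, where WT libraries B and C held Cbln3 at 19.0 and 15.5. Fat2, Gabra6 and Cbln3 were highest in WT library D. Of all 20 other granule cell genes 3 were highest in that library, 8 in WT library B and 5 in SCA1 KI library F, among them Cbln1 at 395 against 162 to 269 in the other 5 and Barhl1 at 22.5 against 0, while 0 were highest in library A, which held the most En2. Part of these 20 genes is also expressed in cortex, with values given below. The part of granule cell RNA in the En2 result was not tested.

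Other genes of midbrain and anterior hindbrain were higher in the same SCA1 KI cortex libraries. Pax2, a paired-box factor of the midbrain and hindbrain border and of inhibitory interneurons, was at 11.9, 19.9 and 39.8 in WT and at 346, 186 and 132 in SCA1 KI (LFC 3.21, SE 0.37, adjusted p = 1.02e-04, limma). En1, the paralog of En2, was at 0, 3.32 and 0 against 7.88, 5.06 and 38.7, and Irx5, another patterning factor, at 8.32, 2.21 and 1.14 against 16.8, 17.2 and 34.2. Pou4f1, a POU factor of midbrain roof and habenula, was at 3.57, 2.21 and 6.83 against 372, 225 and 217, and Tal1, a factor of midbrain inhibitory neurons, at 121, 115 and 125 against 991, 509 and 497. Each of these was called higher by limma (adjusted p from 1.43e-05 for Pou4f1 to 0.00613 for En1). Library A, with the highest En2, also had the highest Pax2, Pou4f1 and Tal1, while En1, Irx5 and the plotted Shox2 were highest in library F. Of the 10 tested patterning genes 4 were highest in library F and 3 in library A. Of the 8 tested midbrain markers 5 were highest in library F and 3 in library A. Of 10 tested midbrain and hindbrain patterning genes 3 were called higher and 1 lower, and of 8 midbrain markers 3 were called higher and 0 lower. The patterning genes had 5 members with SCA1 KI above WT in every cortex library, 2 below and 3 that overlapped, and the midbrain markers had 3, 0 and 5, beside 13% of all tested genes with SCA1 KI above WT without overlap. Of the 5, Hoxb3 and Hoxb5 were not called. Both were at 0 in every WT cortex library. In SCA1 KI libraries A, E and F Hoxb3 was at 4.93, 4.05 and 0.901 and Hoxb5 at 10.8, 7.08 and 0.901, the last under 3 reads. They passed the filter on low counts through WT cerebellum library 2, at 133 and 197. Otx2, a patterning factor, overlapped at 4.55 to 8.32 in WT and 2.02 to 40.5 in SCA1 KI, as did Gata2 at 179 to 235 and 205 to 279 and Th, the dopamine synthesis enzyme, at 29.6 to 151 and 34.4 to 561. The midbrain markers summed to 430 to 556 in WT and 1049 to 1834 in SCA1 KI cortex, and their part in the En2 result was not tested.

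**Figure D4:**
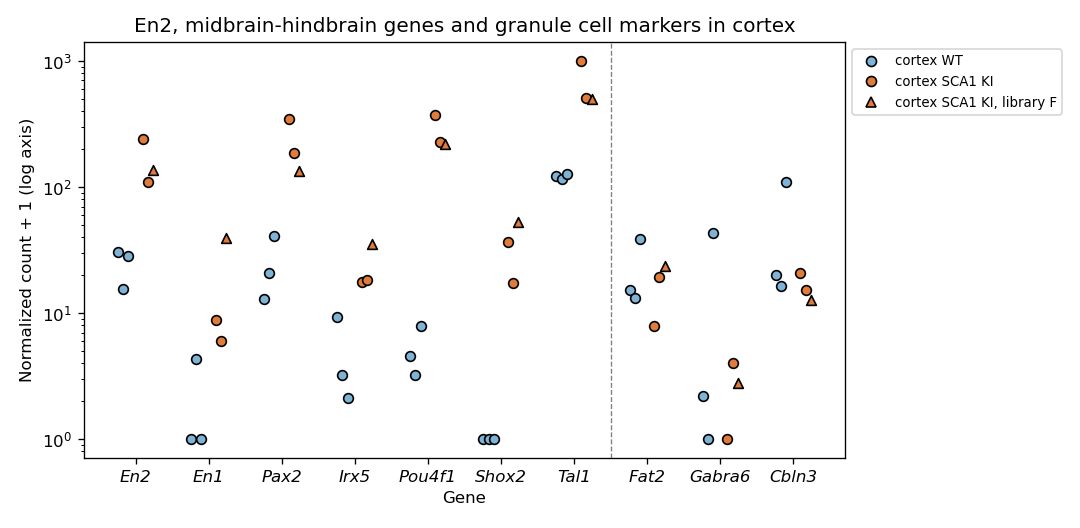
Normalized count plus 1 (log axis) of En2 and 6 midbrain and hindbrain genes, and right of the dashed line of 3 granule cell markers, in the 6 cortex libraries, 1 point a library. En2 (108 to 239 in SCA1 KI against 14.4 to 29.7 in WT) and these 6 genes, which were picked from 18 tested list genes because they do not overlap, are separated by genotype, while Fat2, Gabra6 and Cbln3 are not and are highest in a WT library. Not plotted are Hoxb3 and Hoxb5, also above WT without overlap but at 0.901 in library F, and the 2 patterning genes below WT.

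The other 7 members were not called in cortex, and for 5 of them the highest value lay in SCA1 KI library F. Calb2 was at 567, 589 and 343 in WT and at 624, 340 and 2000 in SCA1 KI libraries A, E and F. The LFC was 0.63 (SE 0.45, adjusted p = 0.384, limma) and was -0.076 without library F. Zic1 was at 315, 406 and 492 in WT and 399, 376 and 1001 in SCA1 KI (LFC 0.42, and -0.037 without library F). Pax6 was at 343, 354 and 306 in WT and 389, 349 and 612 in SCA1 KI (LFC 0.39, SE 0.17, adjusted p = 0.147, limma, and 0.14 without library F). For Zic1 the SCA1 KI libraries A and E lay among the WT libraries. For Pax6 library A lay above every WT library and library E among them. For Calb2 library A lay above and library E just below every WT library.

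Zic2 and Zic4 were also highest in library F, at 836 and 132, against 529 to 652 and 48.7 to 97.9 in the other 5 libraries. Neurod1, in contrast, was lowest in library F, at 652 against 723 to 970. Fat2 was at 6.90 to 22.5 in SCA1 KI and 12.2 to 37.6 in WT (LFC -0.37, SE 0.40), too few reads for a small difference to be detectable. Calb2 and Pax6 were called when library E was left out (LFC 1.20, adjusted p = 0.0496, and LFC 0.55, adjusted p = 0.0485, limma), which leaves library F and library A as the SCA1 KI group.

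Of 11 tested markers of the olfactory bulb and septum 9 were highest in library F. The summed level of the list was 13839 there and 7570 to 9333 in the other 5 cortex libraries. Cdhr1, a cadherin of olfactory bulb output neurons, was at 1916 against 275 to 732, and Eomes, a factor of the same cells, at 572 against 2.28 to 101. Sp8 and Dlx1, factors of olfactory bulb interneurons, were at 797 against no more than 269 and at 2171 against 781 to 1117. The 2 that were not highest there were Trpc4, at 792 against 535 to 914, and Lhx2, a factor of cortex and olfactory bulb that was lowest in library F, at 2345 against 2713 to 3225. The part of these markers in the member values was not tested, and the members' values without library F are those given above.

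**Figure D5:**
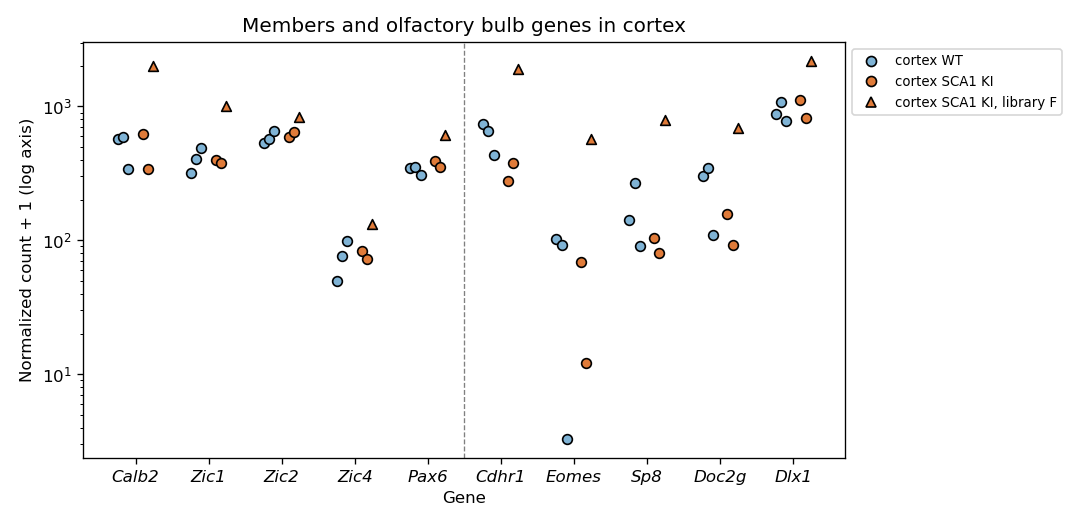
Normalized count plus 1 (log axis) of 5 members and, right of the dashed line, of 5 olfactory bulb genes in the 6 cortex libraries, with SCA1 KI library F as a triangle. Library F is the highest point in every column, for Calb2 at 2000 against 340 to 624 in the others. This is set by the choice of columns, which are the 5 such members and 5 of the 9 such list genes. Of the genes not plotted, Neurod1 and Lhx2 were lowest in library F, and En2, Fat2 and Trpc4 were highest in another library.

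In the cortex 1 of the 20 other granule cell genes was called higher and 7 lower, beside 4.82% and 10.8% of all tested genes, and 12 were not called. The median LFC of the 20 was -0.41 where that of all tested genes was -0.00281. Part of this list is also expressed in cortex, so its counts and median do not measure granule cell RNA there. Slc17a7 was at 59871 to 62252 in WT cortex and 11695 to 16696 in WT cerebellum, and Nfix at 10666 to 12612 in WT cortex. Gabra6, in contrast, was at 0 to 42.1 in WT cortex. Gabrd, a receptor subunit for tonic inhibition that cortical neurons also express, fell from 3122, 3020 and 2929 to 1144, 1024 and 888 (LFC -1.58, SE 0.13, adjusted p = 1.40e-05, limma). Reln, an extracellular guidance protein, fell by 0.81 on the log2 scale (adjusted p = 0.0059, limma). Cadps2, which rose in cerebellum, fell in cortex (LFC -0.62, adjusted p = 0.00422, limma). Meis1, a homeobox factor, was called higher (LFC 0.99, adjusted p = 0.0493, limma), at 124 to 141 in WT and 139, 254 and 511 in SCA1 KI, highest in library F. With 1 library left out that call held only without SCA1 KI library A, and was lost in every other such fit (LFC from 0.51 upward, adjusted p up to 0.105, limma), while Gabrd, Reln and Cadps2 stayed called lower in all 12. Of 7 markers of cortical interneurons of the Calb2 type 0 were called higher and 1, the neuropeptide gene Cck, was called lower (LFC -0.56, adjusted p = 0.00429, limma). Of the same 7 markers 0 had a positive LFC, and their median LFC was -0.56. Of the 15 tested relatives of the members 3 were called higher in cortex, Pax2, En1 and Pax3, and 3 lower, Fat3 (LFC -0.69, adjusted p = 0.00642, limma), Pvalb (LFC -0.66, adjusted p = 0.0111, limma) and Calb1 (LFC -0.44, adjusted p = 0.019, limma). Pax3 and En1 passed the filter on low counts through their cerebellum values. In cortex Pax3 was at 0 in all 3 WT libraries and at 0.986, 1.01 and 9.91 in SCA1 KI libraries A, E and F, the first 2 under 3 reads, and its call was lost without any single WT cortex library (adjusted p up to 0.0652, limma). The call of Calb1 was lost without WT library C or D or SCA1 KI library F (adjusted p up to 0.0713, limma).

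The genes most like each member in their pattern were the 3 with the highest Pearson r of log2 values over the 12 libraries. The r of these 24 pairs ran from 0.992 to 0.998. The points share their library and fall into 2 clusters, the regions, so that r mostly reports a similar regional difference and no p is given. Zic1 was most like Skor2, Zic4 and Zic2, and Zic4 was most like Zic1. Neurod1 was most like Mmp24, Zic2 like Rgl3, Fat2 like Prkcd and En2 like Skor1. Pax6 was most like Rev3l, and Calb2 was most like Mkrn3, Uncx and Pax6, with the lowest r of all pairs between Calb2 and Pax6.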

How the data were processed

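RNA of macrodissected cortex and cerebellum was poly(A)-selected with oligo-dT and sequenced as paired ends. The authors used STAR for alignment to mm10, featureCounts for counting and DESeq2 for normalization (versions not given in the sources used here), and deposited 1 table of normalized counts, a signal in which reads are scaled by the size factor of their library. Multiplied back, 100% of the values in each library were whole reads within 0.02, and these were recovered for edgeR and DESeq2. The labels list male mice, and the study's methods males and females combined. Library columns name region and genotype but not the label's replicate.

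The 8 members and 17 lists of genes were chosen with earlier results of these data known. Named genes are the members, Atxn1, up to 3 called genes of a list per direction with the smallest p, list genes a result turned on, relatives of the members, and the 3 genes most like each member. Hoxa5, Eomes, Gabra6, Cbln3, Pcp2, Tfap2d, Tcf7l2, Slc17a6, Cdhr1, Sp8, Dlx1, Trpc4, Lhx2, Otx2, Gata2, Th, Cbln1, Barhl1 and the 6 midbrain and hindbrain genes plotted are list genes named after their values were seen. The same holds for Hoxb3, Hoxb5, Chn2, Tiam1, Slc17a7, Nfix and the plotted Doc2g.

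Tested genes had a mean of 10 normalized counts or more (390 had less). The test was limma 3.58.1 in R 4.3.3 (empirical Bayes, mean trend) on log2(normalized count + 1), over 12 libraries and 4 group means, a scale on which low genes show too small a change. Adjusted p are Benjamini-Hochberg values over all 15369 genes. The calling thresholds were 0.05 for the adjusted p and 0.25 for the absolute LFC, the latter not applied to the difference between regions. In simulated counts for the cerebellum comparison of 15369 genes, limma called 83% of 100 genes changed 2-fold, 95% of 100 changed 4-fold and 6 of 15169 unchanged genes. Replicates of a group differed by more than counting noise (a chi-square of 7.54 to 36.6 per gene), and each library was kept as its own. Intervals cover the spread between libraries. Alternatives were edgeR 4.0.16, DESeq2 1.42.0, pseudocounts of 0.5 and 5, no filter, a minimum of 100, centring within a region, each region on its own, removal of a length and GC trend (95.3% of genes had both values), an LFC limit of 1 and each library left out. Gene models and coding sequences are from GENCODE vM21 on GRCm38, the same build as mm10. Some genes of the lists are counted but not reported here by name.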

Additional observations from a re-analysis of the deposited data

Results flagged for a closer look

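The genotype effect on En2 differed between the regions by a test of the difference itself. The cerebellum LFC minus the cortex LFC was -2.48 (adjusted p = 0.00299, limma), with an LFC of 0.21 in cerebellum and 2.69 in cortex. En2 was higher in 3 of 3 SCA1 KI cortex libraries than in every WT cortex library, while in cerebellum the genotypes overlapped. The values of midbrain and granule cell markers in the same libraries are given in the report, and their part in the difference was not tested.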

How the results depend on the processing

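The regional calls (8 of 8 in each genotype) and the 1 call of a regional difference in genotype effect, En2, held under every alternative run. In cerebellum the 0 of 8 calls became 2 with each region fitted on its own (Calb2 and Pax6), 1 with the cerebellum on its own scaled to the other granule cell genes (Calb2), and 0 to 2 with a library left out, of which 1 without cortex SCA1 KI library F (Pax6) and 2 with the cerebellum on its own and WT library 2 left out. In cortex the 1 of 8 calls became 2 with a length and GC trend removed (Pax6 added, LFC 0.50, adjusted p = 0.0457, limma) and 1 to 3 with a library left out, 3 without SCA1 KI library E. The 2 calls among the other granule cell genes in cerebellum became 1 without the filter on low counts, 1 in the scaled fit, 0 with an LFC limit of 1 and 1 to 6 with a library left out. The 6 came from the cerebellum on its own without library 2, and 1 was left when any single cerebellum library, or cortex library B, C, D or F, was left out. The 8 calls in cortex became 1 with an LFC limit of 1 and 5 to 8 with a library left out, 5 without WT library B or C, or without SCA1 KI library F with the cortex on its own.

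Signs turned only for values that were not called. For Calb2 the genotype LFC in cerebellum minus that in cortex, 0.10, was -0.29 with edgeR and -0.26 with DESeq2. In the scaled cerebellum fit the LFCs were -0.037 for Zic1, -0.021 for Zic2 and -0.056 for Fat2. With a library left out, the cerebellum LFC ran from -0.035 to 0.26 for Zic1 and from -0.034 to 0.29 for Zic2. The cortex LFC ran from -0.015 to 0.27 for Neurod1, from -0.037 to 0.67 for Zic1, from -0.076 to 1.20 for Calb2 and from -0.68 to 0.11 for Fat2. The genotype LFC in cerebellum minus that in cortex ran from -0.088 to 0.26 for Neurod1, from -0.52 to 0.19 for Zic1 and from -0.27 to 0.080 for Zic2. It ran from -0.36 to 0.14 for Zic4, from -0.059 to 0.34 for Pax6 and from -0.47 to 0.81 for Calb2. The cause of these changes was not tested.

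Removing the length and GC trend moved the share of lower calls over all genes from 82.9% to 55.1% in cerebellum and from 69.2% to 56.9% in cortex, and 98.2% were lower in the scaled fit. The cortex on its own without library F gave 81.9% lower. No paired analysis was possible because the columns carry library names and not the replicate numbers of the labels. With 3 libraries a group, differences near the width of the intervals were not detectable, and Fat2 and En2 in cortex rest on few reads.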
